A study of Oryctolagus cuniculus with 9 samples.

Results

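SLC12A1, TEX14, DNA2 and USP50 were followed as 4 genes of 19511 loci in an RNA sequencing table of primary rabbit parathyroid cells. Each symbol matched 1 row of the table, all of them assembled loci (MSTRG.31024, MSTRG.34479, MSTRG.32593 and MSTRG.30980). They were chosen by their deposited FPKM (fragment counts scaled by transcript length and library total), low in control libraries and high in libraries of gallic acid pretreated cells, so their levels are described and not tested. The study has 3 groups of 3 libraries. Control cells are labelled wild type, untreated and day 0. The H/R group, with the label IRI in place of a genotype, was kept hypoxic for 6 h and reoxygenated for 6 h. The GA+H/R group was first given gallic acid, a phenolic compound of plants, at 1200 µM for 24 h and then treated like H/R. The title of the series concerns gallic acid in parathyroid injury by ischaemia and reperfusion. The labels name neither animals nor cultures, so p-values measure the spread between libraries only, which may be technical. They also do not say whether the groups spent equal time in culture.

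The 4 proteins have unrelated known roles. SLC12A1 is the sodium, potassium and chloride cotransporter of the thick ascending limb of the kidney and the target of loop diuretics. It belongs to the same family as the ubiquitous cotransporter SLC12A2. TEX14 is a testis protein with a kinase-like domain that, in mice, keeps the bridges between dividing germ cells open by binding CEP55 and so blocking abscission. DNA2 is a nuclease and helicase that trims Okazaki fragments, resects DNA ends together with BLM or WRN and acts in mitochondrial DNA maintenance. USP50 belongs to the ubiquitin-specific proteases, which remove ubiquitin from proteins, and the table describes it as inactive.

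The libraries differ in scale and in cell markers. The sum of FPKM over all loci was between 1648012 and 1696488 in control, between 730117 and 752065 under H/R and between 467499 and 516231 in GA+H/R, and the median log2 change of all loci was -1.25 for H/R minus control, -0.50 for GA+H/R minus H/R and -1.77 for GA+H/R minus control. Results are therefore given both as deposited and relative to the median locus, where each library is divided by its median ratio to the geometric mean library. The table gives no counts, so depth is unknown. Of 13 parathyroid markers in the table, 8 were under 1 FPKM in every library, among them PTH, the parathyroid hormone gene, between 0 and 0.142, and no row matched CASR or GCM2. The 13 summed to between 317.5 and 386 FPKM in control, 91.9 and 95.5 under H/R and 40.5 and 44.7 in GA+H/R, while fibroblast markers summed to between 128832 and 193230 FPKM in control and between 13933 and 14090 in GA+H/R. Macrophage markers summed to between 4.74 and 76.0 FPKM in control, 19.6 and 22.9 under H/R and 145.7 and 152.2 in GA+H/R. Endothelial markers summed to between 2.45 and 9.43 FPKM in control and between 2.02 and 2.25 in GA+H/R. These sums are as deposited, a scale on which the median of all loci also fell. Relative to the median locus, 1 of 4 parathyroid markers tested was higher in GA+H/R than in control and 2 were lower. Of 9 fibroblast markers 2 were higher and 7 lower, of 6 macrophage markers 6 and 0, and of 2 endothelial markers 1 and 0. Over all loci 34.2% were higher and 35.9% lower (limma, adjusted p under 0.05). The part of any cell type in the levels of the 4 genes was not tested. In such bulk libraries, fewer cells of a type and less RNA per cell cannot be told apart.

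SLC12A1 had the widest range. Its deposited FPKM was 0.0688 in control 1, 0.0472 in control 2 and listed at 0 in control 3. It was 31.4, 33.7 and 32.2 in the H/R libraries and 59.3, 63.4 and 60.97 in the GA+H/R libraries. The gene was thus close to unmeasured in control cells, and no library of any group overlapped another group. H/R averaged 32.4 ± 1.17 FPKM and GA+H/R 61.2 ± 2.05 (SD, n = 3), a ratio of 1.89 on the deposited scale and of 2.999 relative to the median locus. No fold is given against control because a control library is at 0, and the fitted log2 difference of H/R from control, 5.28 relative to the median locus, depends on the 1 added before the logarithm (8.39 when 0.1 was added).

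TEX14 was measured in every control library, at 5.67, 4.37 and 4.47 FPKM. It was at 28.3, 27.9 and 27.96 FPKM under H/R and at 34.8, 39.03 and 37.6 in GA+H/R. Control averaged 4.84 ± 0.721, H/R 28.1 ± 0.228 and GA+H/R 37.2 ± 2.14 FPKM (SD, n = 3). As deposited, most of its difference lay between control and H/R: the H/R mean was 5.80 times the control mean, and the GA+H/R mean 1.32 times the H/R mean. These ratios were 16.1 and 2.10 relative to the median locus.

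DNA2 was at 1.53, 1.02 and 1.53 FPKM in control. The H/R libraries had 9.60, 7.86 and 8.52 FPKM and the GA+H/R libraries 16.9, 13.3 and 17.3. Means were 1.36 ± 0.298, 8.66 ± 0.879 and 15.9 ± 2.19 FPKM (SD, n = 3). The order of the groups held for every library, although GA+H/R replicate 2 lay closer to H/R than the others did. The ratios were 6.37 for H/R to control and 1.83 for GA+H/R to H/R as deposited, and 17.6 and 2.91 relative to the median locus.

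USP50 was at 1.61, 1.44 and 1.15 FPKM in control, at 6.16, 8.16 and 5.13 under H/R and at 12.7, 11.3 and 10.9 in GA+H/R. Its H/R libraries spread the most, with a coefficient of variation of 23.8%, against 3.60% for SLC12A1, 0.812% for TEX14 and 10.1% for DNA2. The means were 1.40 ± 0.233, 6.49 ± 1.54 and 11.6 ± 0.914 FPKM (SD, n = 3). H/R was 4.63 times control and GA+H/R 1.79 times H/R as deposited, and 12.8 and 2.85 times relative to the median locus. Its groups did not overlap either, the highest H/R library being under the lowest GA+H/R library.

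**Figure D1:**
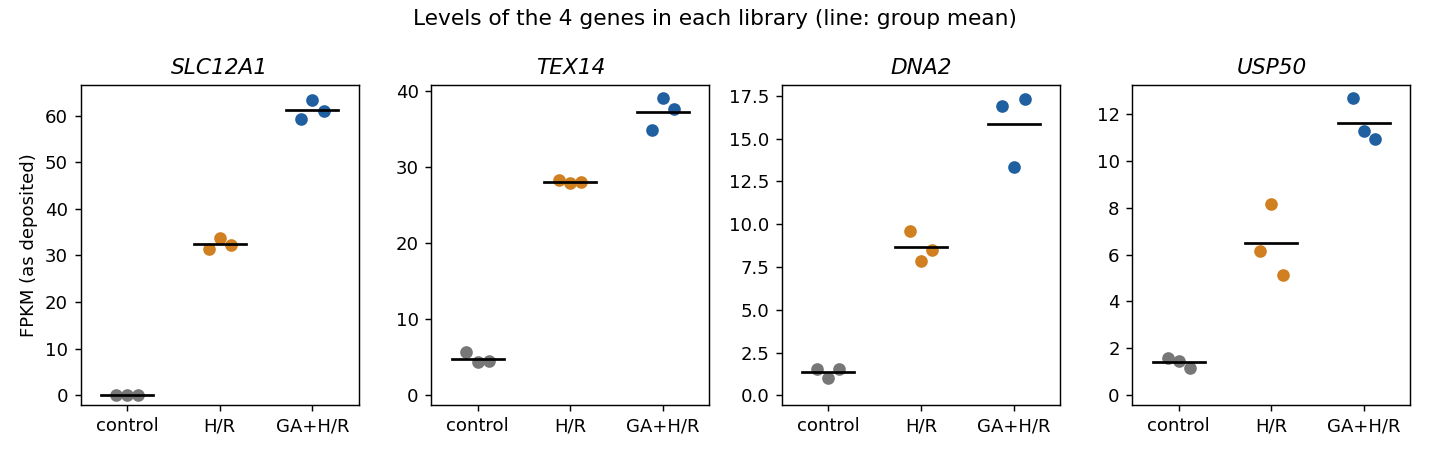
FPKM as deposited (vertical axis, linear from 0) of SLC12A1, TEX14, DNA2 and USP50 in the 3 groups; each point is a library and each line a group mean. In all 4 panels the control libraries are lowest and the GA+H/R libraries highest, and in TEX14 the H/R libraries (27.9 to 28.3) sit nearer to GA+H/R than in the other panels.

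These values are stepwise in every library, which describes how the genes were chosen. All 4 had every H/R library above every control library and every GA+H/R library above every H/R library, on both scales. Over all loci tested the same order was found for 1825 of 10550 relative to the median locus (17.3%) and for 128 of 10996 as deposited (1.16%). For the first step alone, H/R above control, the shares of all loci were 34.4% and 4.38%, and for the second step, GA+H/R above H/R, 28.1% and 3.2%. The opposite order, lower at both steps without overlap, was found for 7433 loci as deposited (67.6%) and 1401 relative to the median locus (13.3%). The level reached in H/R, as a percentage of the GA+H/R level, was 52.98% for SLC12A1, 54.6% for DNA2, 55.8% for USP50 and 75.5% for TEX14 as deposited. Relative to the median locus it was 33.3%, 34.4%, 35.1% and 47.5%. On that scale the fitted log2 differences of GA+H/R from control were 6.85 ± 0.07 for SLC12A1, 4.53 ± 0.08 for TEX14, 4.28 ± 0.13 for DNA2 and 3.84 ± 0.15 for USP50 (SE), which ranked 1, 8, 16 and 28 among the 10550 loci. As deposited they were 5.91, 2.71, 2.84 and 2.40 and ranked 1, 12, 8 and 18 of 10996. The order among TEX14, DNA2 and USP50 depends on the added 1: with 0.1 added the differences were 5.02, 5.46 and 4.98, and the ratios of GA+H/R to control means were 33.9, 51.2 and 36.6, all relative to the median locus. All 4 passed the filter on low values (at least 1 FPKM in at least 3 libraries) on both scales, SLC12A1 through the H/R and GA+H/R libraries alone. Relative to the median locus, the control levels of DNA2 and USP50 were under 1 as well (0.586 and 0.601).

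**Figure D2:**
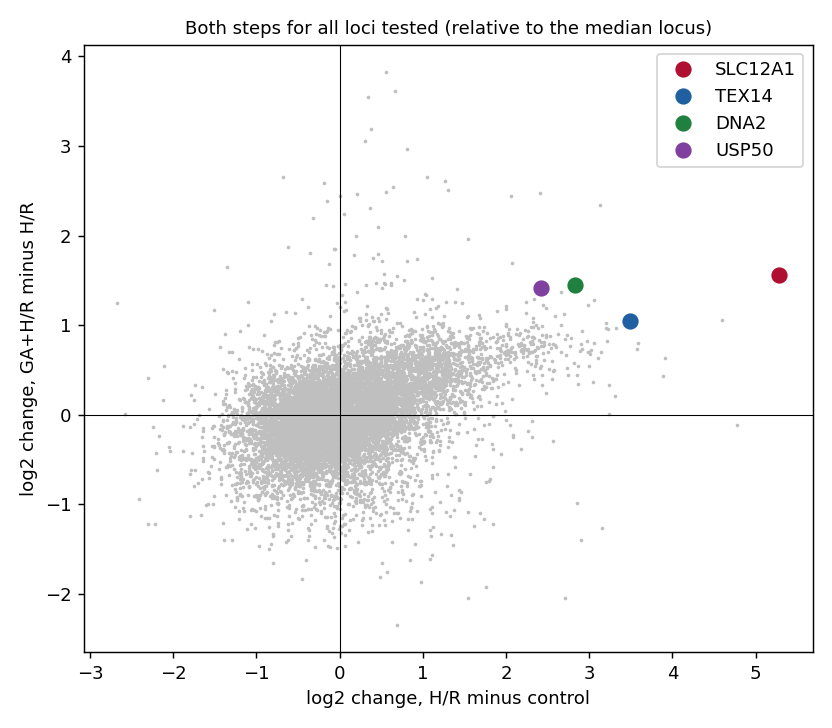
Fitted log2 change at the first step (H/R minus control, horizontal axis) and at the second step (GA+H/R minus H/R, vertical axis) for all 10550 loci tested, relative to the median locus, with the 4 genes in colour. SLC12A1 lies at 5.28 and 1.56, TEX14 at 3.49 and 1.05, DNA2 at 2.83 and 1.45 and USP50 at 2.43 and 1.42, all in the upper right; both axes share the H/R libraries.

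Other loci in stepwise order were listed by their total difference. Relative to the median locus, 23 loci in stepwise order differed between GA+H/R and control by at least as much as USP50, the 4 genes included. Of the other 19, 16 carry an unnamed LOC symbol, 6 are described in the table as ribosomal proteins and 3 as histones. The largest were LOC103351326, described as a USP6 N-terminal-like protein, from 7.74 to 87.03 and 114.8 FPKM (log2 difference 5.65), and LOC103346138, described by a marmot APC2 protein, from 18.2 to 62.2 and 200.1 FPKM (5.47). LOC108177361 (4.59), LOC100358479, described as elongation factor 1-gamma (4.55), and STAB1, a scavenger receptor of macrophages (4.51), came next. They were followed by the relaxin-like locus LOC100346250;RLN1;LOC100346509 (4.39), the histone H2B locus LOC100346341 (4.34), LOC108176166;LOC100353654 (4.32), LOC100344320, described as ribosomal protein S23 (4.30), and LOC100348918, described as ribosomal protein S2 (4.29). LOC100346341 was listed at 0 in 2 control libraries and LOC100344320 in 1, so their differences depend on the added 1. That of the relaxin-like locus does too, as its control libraries averaged 0.242 FPKM as deposited. As deposited the group shrank to 9 loci, the 4 genes and 5 LOC symbols.

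The loci whose profile over the 9 libraries was most like that of each gene were mostly of the translation machinery. Likeness was Pearson's r of log2 values relative to the median locus among 9084 loci with a mean of at least 1 FPKM in GA+H/R, and 185 to 372 loci exceeded 0.99 with a given gene, since all share the same 3 groups. For SLC12A1 the 5 closest were LOC100356710 and LOC100348918, both described as ribosomal protein S2, LOC100349870, described as elongation factor 1-alpha 1, RPL13 and LOC100352781, described as ribosomal protein L17 (r from 0.99968 to 0.99992). TEX14 shared 3 of these, had SLC12A1 itself in second place and had LOC100339585, described as ribosomal protein SA, in the fifth. For DNA2 the 4 closest were RAB32, NPM3, a histone chaperone, LOC100339471, described as ribosomal protein S3, and ETHE1, a mitochondrial persulfide dioxygenase. For USP50 they were LOC100342537, MRPL38, a mitochondrial ribosomal protein, LOC100345757, described as elongation factor 1-alpha 1, LOC100350949, described as ribosomal protein S10-like, and THOC5;NIPSNAP1. Several had profiles of like shape but smaller range: RAB32 went from 173.6 to 92.5 and 68.99 FPKM as deposited, a log2 difference of 0.80 relative to the median locus against 4.28 for DNA2.

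The make-up of the loci in stepwise order differed between the scales. Of the 128 found as deposited, 69 (53.9%) were described as ribosomal proteins and 93 (72.7%) carried a LOC symbol, against 3.69% and 16.6% of all loci tested. Of the 1825 found relative to the median locus, 310 (17.0%) were described as ribosomal proteins and 578 (31.7%) carried a LOC symbol, against 3.87% and 16.4% of all loci tested. Such LOC symbols are often near-identical copies of their parent gene, and how reads were shared between copies is not given in the sources used here, so their levels are uncertain. SLC12A1, TEX14, DNA2 and USP50 carry no LOC symbol and are not described as ribosomal proteins. The description of DNA2 marks its predicted protein as low quality. Whether reads shared with other loci contribute to the levels of these 4 genes was not tested.

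Neighbours of the 4 genes on the chromosome were taken by gene_id number within 2 and by the nearest protein-coding genes in RefSeq. The RefSeq annotation was that of the assembly mOryCun1.1 (another source than the table, used only for names and order). This gave 15 loci. No row matched the neighbours CTXN2, FBN1, LOC127484379 or LOC138844683 by symbol or synonym, so they could not be followed. As deposited, 13 of 15 were lower in GA+H/R than in control and 1 was higher (limma, adjusted p under 0.05), against 90.1% lower and 4.1% higher over all loci, a share near the background. Relative to the median locus 5 rose and 6 fell, against 34.2% and 35.9% of all loci, with a median of 0.21.

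Among measured genes, SLC12A1 lies between MYEF2 and DUT. DUT, the enzyme that hydrolyses dUTP, was at 71.6, 41.3 and 38.9 FPKM in control, 48.2, 45.7 and 48.1 under H/R and 39.9, 40.7 and 35.8 in GA+H/R. Its control libraries overlapped both other groups as deposited, while every GA+H/R library was under every H/R library. DUT had an adjusted p of 0.144 for GA+H/R against control as deposited (limma), and rose by 1.76 ± 0.16 relative to the median locus (SE, adjusted p = 1.26e-05). MYEF2, an RNA-binding repressor, was at 26.1 ± 3.38, 10.5 ± 0.717 and 7.11 ± 1.72 FPKM (SD, n = 3). The preceding gene_id is LOC108178332, which the table describes as similar to a translation initiation factor and which fell at both steps, from 7229 ± 166.9 to 1255 ± 3.98 and 339 ± 7.34 FPKM (-2.28 ± 0.05 relative to the median locus, adjusted p = 6.18e-10).

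TEX14 lies among SEPT4, SUPT4H1 and RAD51C. RAD51C, a recombination protein, averaged 97.7 ± 14.1 FPKM in control, 16.1 ± 0.855 after H/R and 6.59 ± 1.15 with gallic acid (SD, n = 3), and fell by 1.68 ± 0.12 relative to the median locus (limma, adjusted p = 2.23e-06). SEPT4, a septin, was at 30.2 ± 2.69, 18.9 ± 0.890 and 15.5 ± 1.17 FPKM, a fall of 0.91 as deposited that turned to a rise of 1.12 relative to the median locus. SUPT4H1, a transcription elongation factor, was likewise at -0.66 as deposited and at 1.41 relative to the median locus. LOC100354063, between TEX14 and RAD51C and described as ribosomal protein S20, was the 1 neighbour higher on both scales. It was at 1.98, 1.79 and 1.83 FPKM in control, 2.82, 2.80 and 2.59 under H/R and 3.23, 3.19 and 3.20 in GA+H/R, a rise of 1.97 ± 0.08 relative to the median locus (limma, adjusted p = 6.27e-08) and of 0.56 as deposited. TEX14 also differs from the other 3 genes in its annotation: the table lists 9 transcripts for it and 1 for each of the others, and RefSeq places 10 genes inside it, 4 of them snoRNAs, 1 a pseudogene and 0 protein-coding, and 0 inside SLC12A1, DNA2 or USP50.

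DNA2 lies between RUFY2 and SLC25A16. SLC25A16, a mitochondrial carrier, was at 4.35, 3.97 and 3.46 FPKM in control, 1.56, 1.18 and 1.41 under H/R and 1.22, 1.19 and 1.03 in GA+H/R. RUFY2, an endosomal adaptor, was at 2.87 ± 0.285, 0.899 ± 0.0198 and 0.480 ± 0.152 FPKM (SD, n = 3). Neither passed the test relative to the median locus (adjusted p = 0.0712 and 0.111, limma), and both were lower as deposited. TET1, a DNA demethylase, fell by 1.02 ± 0.13 (adjusted p = 1.18e-04).

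USP50 lies between USP8 and TRPM7. USP8, a related protease that works at endosomes and shares its row with LOC103351207, was at 241.1, 204.2 and 206.9 FPKM in control, 49.3, 61.6 and 54.8 under H/R and 32.5, 36.6 and 29.5 in GA+H/R. As deposited, USP8 thus fell at both steps without overlap, opposite to USP50, as did 67.6% of all loci. Relative to the median locus USP8 fell by 0.59 ± 0.10 from control to GA+H/R (SE, limma, adjusted p = 7.01e-04). On that scale its change from H/R to GA+H/R was -0.08 ± 0.10 (SE, limma, adjusted p = 0.579). TRPM7, an ion channel with a kinase domain, fell from 283 ± 22.01 to 66.2 ± 3.48 and 31.07 ± 5.43 FPKM (SD, n = 3), by 1.05 ± 0.11 relative to the median locus. ATP8B4, a lipid flippase with the preceding gene_id, fell by 0.61. LOC100354792, a histone H3.3-like gene that RefSeq places before USP50 but whose gene_id is far from it in the table, was at 1.27 relative to the median locus and at -0.39 as deposited.

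**Figure D3:**
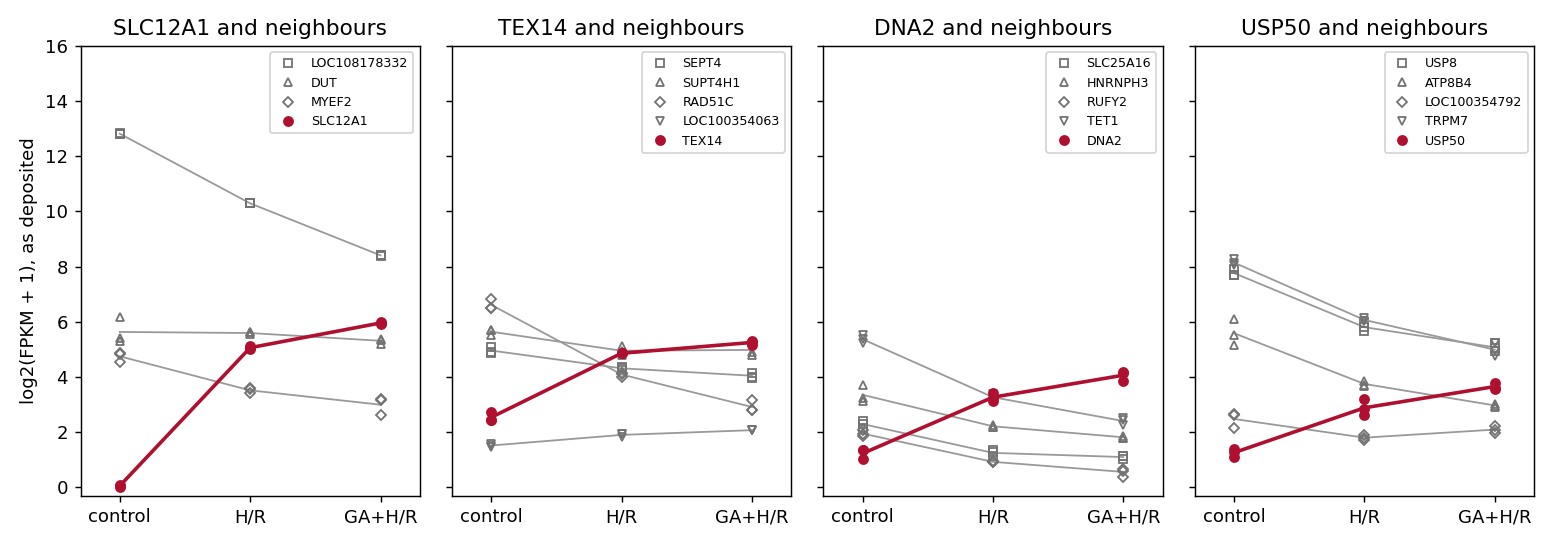
log2(FPKM + 1) as deposited (vertical axis) in the 3 groups for each of the 4 genes (red) and its neighbouring loci (grey symbols, 1 per library, lines through group means). The red lines go up while most grey lines go down; DUT is nearly level and LOC100354063 goes up slightly, from 1.86 to 3.21 FPKM.

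Relatives and partners of the 4 genes were counted in 8 lists with 143 genes in the table, of which 109 were tested. In GA+H/R against control, relative to the median locus, 23 rose and 47 fell, against 34.2% higher and 35.9% lower over all loci. As deposited 0 of 112 tested rose and 110 fell, against 4.1% and 90.1% of all loci. In H/R against control 23 rose and 39 fell, against 29.9% and 29.1% of all loci, and in GA+H/R against H/R 12 rose and 22 fell, against 19.6% and 15.5%. As deposited these comparisons had 0 higher and 107 lower, against 4.18% and 86.0% of all loci, and 0 higher and 88 lower, against 1.69% and 64.3%. Among the 109 tested relative to the median locus, the highest log2 difference of GA+H/R from control was 1.96, for CIT. The 4 genes are above it, but they were chosen as high in GA+H/R and the listed genes were not.

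Of the other cation and chloride cotransporters, 7 were in the table and 3 were tested. All 3 fell in GA+H/R against control, where 35.9% of all loci fell and the median of all loci was -0.05. SLC12A2, the cotransporter found in most tissues, averaged 414 ± 16.5 FPKM in control, 69.4 ± 5.84 after H/R and 36.3 ± 0.834 with gallic acid (SD, n = 3), and fell by 1.37 ± 0.09 relative to the median locus (limma, adjusted p = 1.21e-06). SLC12A9 fell by 0.43 (limma, adjusted p = 0.0294, a call lost without GA+H/R replicate 3 and without control replicate 3, at adjusted p of 0.0976 and 0.101). SLC12A3, the thiazide-sensitive cotransporter of the distal tubule, averaged at most 0.0643 FPKM in a group.

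The kinases and adaptors that regulate these cotransporters were counted as well. Of 9 tested in GA+H/R against control, 2 rose, 3 fell and 4 did not pass. Over all loci 34.2% were higher and 35.9% lower. The median of the 9 was -0.04, close to the -0.05 of all loci. PPP1CA, a catalytic subunit of protein phosphatase, rose by 1.85 ± 0.07 (limma, adjusted p = 2.79e-08) but was at -0.26 as deposited, and CAB39L, a scaffold of the kinases STK39 and OXSR1, rose by 0.91 but was at -1.13 as deposited. KLHL3, which targets WNK kinases for degradation, fell by 1.18 ± 0.10 and PPP3CA, a subunit of calcineurin, by 0.41. Other markers of the thick ascending limb were mostly low in all groups. Of 7 in the table, 6 were under 1 FPKM in every library, UMOD being at 0 in all but H/R replicate 2 (0.462) and KCNJ1 at 0 in all GA+H/R libraries. Their sum as deposited was between 5.77 and 8.002 FPKM in control, 1.86 and 3.56 under H/R and 0 and 1.999 in GA+H/R, nearly all of it EGF. As deposited, the median log2 change of all loci was -1.77 for GA+H/R minus control. The 1 marker tested was at -0.55 in GA+H/R against control relative to the median locus and was not called. The part of thick ascending limb cells in the level of SLC12A1 was not tested.

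Partners of TEX14 act at the bridge between dividing cells. Of 17 tested in GA+H/R against control relative to the median locus, 12 rose, 3 fell and 2 did not pass, against 34.2% higher and 35.9% lower over all loci, and the median was 0.35 against -0.05. As deposited 0 rose and 15 of 16 fell, near the 90.1% lower over all loci, and the median was -1.56 against -1.77. CEP55, the protein that TEX14 binds, averaged at most 0.0634 FPKM in a group and was not tested. CIT, a kinase of the midbody, rose by 1.96 ± 0.22 (limma, adjusted p = 3.98e-05) with 3.07 ± 0.179, 4.06 ± 1.04 and 4.38 ± 1.42 FPKM, and was not called as deposited (adjusted p = 0.106). The abscission factors CHMP2A, CHMP1A and CHMP5 rose by 1.69, 1.12 and 0.87 relative to the median locus and were at -0.40, -0.95 and -1.05 as deposited. PDCD6IP, another binding partner of CEP55 at the midbody, fell by 0.71 relative to the median locus, from 531 ± 24.7 to 130.2 ± 3.11 and 73.5 ± 2.25 FPKM (SD, n = 3). Germ cell markers were mostly low in all groups. Of 5 in the table, 4 were under 1 FPKM in every library, and DDX4 was at 0 in all but GA+H/R replicate 2 (0.018). Their sum as deposited was between 5.68 and 10.7 FPKM in control and between 1.21 and 2.32 in GA+H/R, most of it DMC1. As deposited, the median log2 change of all loci was -1.77 for GA+H/R minus control. The 1 marker tested was at -0.02 in GA+H/R against control relative to the median locus and was not called. The part of germ cells in the level of TEX14 was not tested.

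Of 14 tested partners of DNA2 in end resection and Okazaki fragment processing, 2 rose, 6 fell and 6 did not pass in GA+H/R against control, against 34.2% higher and 35.9% lower over all loci, with a median of -0.36. WRN, a helicase that works with DNA2, fell from 115 ± 16.95 FPKM to 24.9 ± 0.891 and 14.8 ± 0.553 (SD, n = 3), by 0.80 ± 0.08 relative to the median locus (limma, adjusted p = 1.62e-05). ATR, the kinase that responds to single-stranded DNA, fell by 0.99 and RMI1, a scaffold of the BLM complex, by 0.92. RPA2, a subunit of the protein that coats single-stranded DNA, rose by 0.98 but was at -1.03 as deposited. BLM, the other helicase partner, was at -0.85 (limma, adjusted p = 0.158). BLM, PDCD6IP, CEP55 and SLC12A3 were named after their values were seen. Of 7 genes of mitochondrial DNA maintenance, 1 rose, 4 fell and 2 did not pass in the same comparison. Over all loci 34.2% rose and 35.9% fell. POLG, the mitochondrial DNA polymerase, fell by 0.79, TFAM, which packages mitochondrial DNA, by 0.56 and RRM2B, a ribonucleotide reductase subunit, by 0.70, while DGUOK, a nucleoside kinase, rose by 0.90 and was at -1.02 as deposited. Markers of proliferating cells summed to between 83.6 and 114.5 FPKM in control, 50.1 and 62.6 under H/R and 34.5 and 42.7 in GA+H/R. In GA+H/R against control, 6 of 8 tested rose and 0 fell relative to the median locus, against 34.2% and 35.9% of all loci. As deposited 1 rose and 5 fell, against 4.1% and 90.1% of all loci. The part of proliferating cells in the level of DNA2 was not tested.

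Of 35 other ubiquitin-specific proteases tested in GA+H/R against control, 2 rose, 17 fell and 16 did not pass, against 34.2% higher and 35.9% lower over all loci, with a median of -0.30. As deposited all 37 tested fell, against 90.1% of all loci. USP34 averaged 1203 FPKM in control, 248.7 under H/R and 138.4 in GA+H/R and fell by 0.98 ± 0.05 relative to the median locus (limma, adjusted p = 3.31e-07). USP9X, USP33 and USP47 fell by 0.95, 0.93 and 0.91. USP21 and USP39, the 2 that rose, were named after their values were seen, at 0.65 and 0.52. Of 4 tested among the endosomal partners of USP8, the cell cycle kinases and the inflammasome, STAM and STAM2, which bind USP8, fell by 0.44 and 0.65. CDK1, a mitotic kinase, rose by 0.78 and was at -1.05 as deposited. Of 20 tested genes that lie beside the 4 genes in the human genome, 3 rose, 9 fell and 8 did not pass. Over all loci 34.2% were higher and 35.9% lower. The median of the 20 was -0.26, and the list shares genes such as DUT, RAD51C and SUPT4H1 with the neighbours above. SPPL2A, a protease of the endosome membrane near USP50, fell by 1.13 (limma, adjusted p = 4.42e-04).

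**Figure D4:**
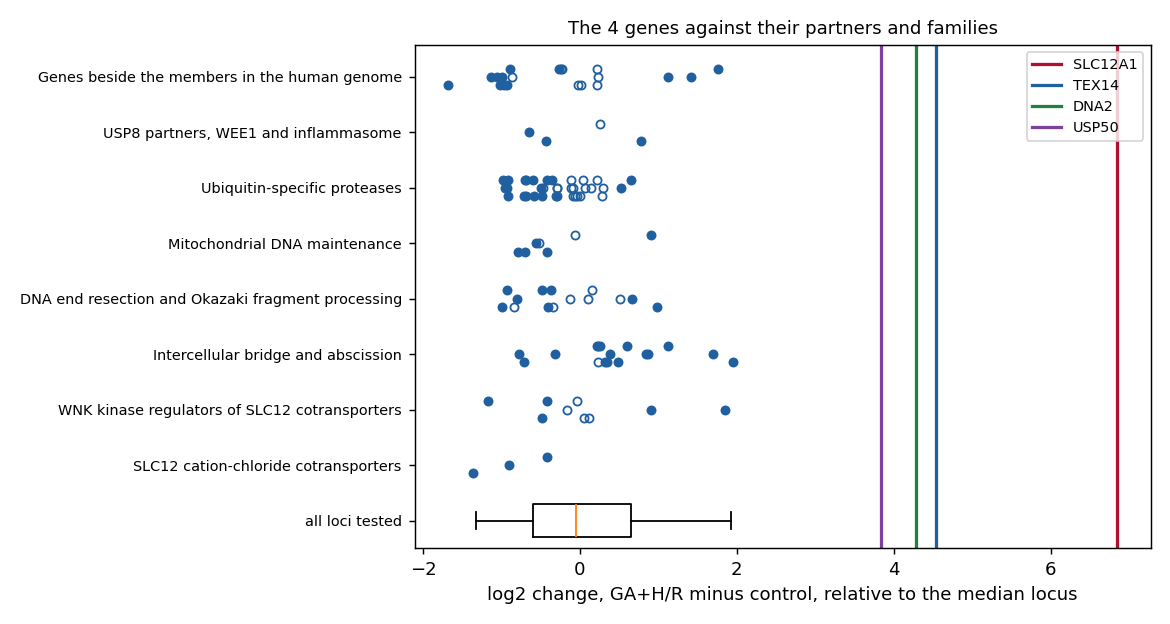
Log2 change of GA+H/R minus control relative to the median locus (horizontal axis) for the genes tested in each of the 8 lists; filled points passed the test (adjusted p under 0.05) and open points did not. The box shows the quartiles and median of all 10550 loci with whiskers at their 5% and 95% points. The vertical lines are the 4 genes, from 3.84 for USP50 to 6.85 for SLC12A1, which were chosen as high in GA+H/R. They lie to the right of every listed gene tested.

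The authors' deposited table marks all 4 genes as significant in its own single test across the 3 groups, which names no pair of groups. The q-values in the authors' deposited table run from 3.31e-222 for SLC12A1 to 6.52e-28 for USP50. Because the 4 genes were chosen by the same FPKM values, these marks and q-values are no separate support. The share of all loci marked is not given here. The values of an assembled locus need not be those of the transcripts listed for it. Of 10262 assembled loci with 1 listed transcript, 23 had values that were whole at 6 decimals in all libraries, against 2776 of 4024 loci with other identifiers and 1 listed transcript, and 0 of the 4 genes did. Which stretch of SLC12A1, TEX14, DNA2 or USP50 gave rise to the FPKM is not given in the sources used here.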

How the data were processed

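A single table of RNA sequencing values was used. Per the file headers the authors deposited FPKM for 19511 loci in 9 libraries, with p-values and q-values of a test across the 3 groups. Aligner, quantification tool, strand handling and versions are not given in the sources used here. Mouse builds appear in the submitters' processing notes, although the listed transcripts are rabbit, so coordinates are left out. Depth is unknown, and precision rests on 3 libraries per group.

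To scale libraries, each was divided by its median ratio to the geometric mean library, taken over the 8448 loci that reached FPKM 1 throughout. A locus was tested if at least 3 libraries had FPKM 1 or more. The fit used limma 3.58.1 (R 4.3.3) on log2(FPKM + 1), all 9 libraries, a mean per group, and trend and robust settings. Two-sided p-values received the Benjamini-Hochberg adjustment across loci, with calls under 0.05. The same fit was run as deposited. This fit was tried on simulated data of 10285 loci for GA+H/R minus H/R. It recovered 172 of 200 loci changed by 1 on the log2 scale and called 8 that were not changed. The changed loci were drawn only from better expressed loci, so recovery near the filter was not tested. Fold changes on the log2(FPKM + 1) scale understate those of low genes. Alternatives changed the scaling, the added value, the filter, the limma settings, a replicate block and the libraries included.

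The members and lists were chosen with earlier results of these data known, and the lists come from general knowledge. Named genes were the 4 members, loci with a gene_id within 2 and RefSeq neighbours, up to 4 called genes per list with the largest change, the 5 loci most alike per member and up to 10 loci in stepwise order. Some genes that this rule names are not reported here.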

Additional observations from a re-analysis of the deposited data

How the results depend on the processing

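The 4 genes were chosen by values that put them in stepwise order, so their order and signs say nothing about stability. Over all alternatives run, the log2 change of GA+H/R minus control ranged from 5.91 to 9.97 for SLC12A1, 2.71 to 5.02 for TEX14, 2.84 to 5.46 for DNA2 and 2.40 to 4.98 for USP50, lowest as deposited and highest with 0.1 added in place of 1. The number of loci in stepwise order was 128 as deposited, 1609 after quantile normalization and from 1855 to 2004 without 1 library. The scale decides most counts. As deposited, 460 loci were higher and 9462 lower for H/R minus control, 186 and 7069 for GA+H/R minus H/R, and 451 and 9906 for GA+H/R minus control. Of the listed relatives and partners 0 were higher in each, and 107, 88 and 110 were lower. After quantile normalization 15 of these were higher in H/R against control. Without 1 library, from 14 to 24 were higher in H/R against control (14 or 15 without any 1 H/R library, control replicate 2 or control replicate 3) and from 11 to 22 lower in GA+H/R against H/R (11 to 14 without any 1 H/R library, GA+H/R replicate 1 or GA+H/R replicate 3). The cause was not tested.

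In GA+H/R against control, 15 of the named neighbours and list genes changed sign as deposited: CAB39L (-1.13), CDK1 (-1.05), CHMP1A (-0.95), CHMP2A (-0.40), CHMP5 (-1.05), DGUOK (-1.02), DUT (-0.32), HNRNPH3 (-1.54), LOC100354792 (-0.39), MYEF2 (-1.75), PPP1CA (-0.26), RPA2 (-1.03), SEPT4 (-0.91), SLC25A16 (-1.20) and SUPT4H1 (-0.66). Of the loci named for likeness, ETHE1 (-0.19), LOC100342537 (-0.087), LOC100345757 (-0.38), RAB32 (-1.32) and THOC5;NIPSNAP1 (-1.47) did so too. Of the tests of neighbours and list genes under other settings, 641 gave the same call, 4 lost it and 7 gained it.

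The replicate numbers are not known to pair libraries: over 9 pairs with the same number, deviations from the group means correlated between -0.02 and 0.03. With the replicate block, 3542 loci were higher and 3718 lower in GA+H/R against control, and no count moved by over 1.5 times. Unknown depth limits low values such as the control levels of SLC12A1.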
